A study of Mus musculus with 12 samples.

Results

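The genes described here are Gal, Trh and Nppb, which encode the precursors of the peptide hormones galanin, thyrotropin-releasing hormone (TRH) and brain natriuretic peptide (BNP). They were taken by symbol and are 3 of the 13508 named genes kept from a table of FPKM, a read count scaled by the length of the transcript and by library size. Each symbol had 1 row in the table. The members were chosen by measured values, with results of these data known: Gal was selected on its low level in Arkadia -/- cells, relative to WT cells, after 3 and 6 h of Activin. The values of Gal in those comparisons are therefore a description and were not tested.

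RNA was sequenced from 4 lines of 129SvEv mouse embryonic stem cells, the wild-type (WT) lines 18 and 26 and the Arkadia -/- lines 25 and 39, called null below. Arkadia, encoded by Rnf111, is a nuclear ubiquitin ligase that acts on repressors of SMAD signalling such as SnoN, the product of Skil. All cells had been grown with LIF, a GSK3 inhibitor and a MEK inhibitor and then seeded on fibronectin in N2B27 for 24 h. They then spent 4 h in 10 µM SB431542, a blocker of the receptor kinases for Activin, Nodal and TGFβ. In every line, 1 dish was collected directly afterwards (the SB group), and 2 further dishes were washed and given 10 ng/ml Activin A in N2B27 for 3 or 6 h. This gave 6 groups of 2 cell lines and 12 libraries. No group had the wash and the hours in N2B27 without Activin, so the effect of Activin cannot be told apart from those steps in any comparison with SB. The labels do not say that the lines of a genotype came from separate embryos, so p-values measure the spread between these lines.

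Rnf111 lay between 3.19 and 4.27 FPKM in the 6 WT libraries and between 0.539 and 0.855 FPKM in the 6 null libraries, without overlap. All 8 embryonic stem cell markers examined (among them Pou5f1, Sox2 and Esrrb) were present, with a summed level of 1476 to 2227 FPKM per library. Most of that sum came from Pou5f1 (562.2 to 925.6 FPKM) and Dppa5a (532.2 to 1048), while Esrrb was at 1.55 to 3.47. The number of reads per library is unknown. Relative depth was estimated from the step size of low values, with null line 39 at 6 h set as the reference. The other 11 libraries came out at 1.22 to 1.81 times its depth. The search covered only libraries deeper than the reference, so a shallower one could not have been found. Each estimate rests on the most frequent ratio, which 104 to 229 of 1940 to 2227 low loci showed.

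Peptide hormones are made as longer secreted precursors that are cut by proprotein convertases and, for many, amidated before release from granules. Galanin is a neuropeptide of the brain and gut that signals through G protein-coupled receptors, TRH is the hypothalamic releasing factor for thyrotropin, and BNP is a heart hormone that signals through a guanylyl cyclase receptor. Activin receptors phosphorylate SMAD2 and SMAD3, which enter the nucleus with SMAD4 and bind DNA beside partners such as FOXH1.

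Gal was near the bottom of the measurable range in SB and rose with Activin in both genotypes, by far more FPKM in WT than in null cells. In WT cells it was listed at 0.301 FPKM in line 18 and 0.185 in line 26 in SB. It stood at 9.89 and 11.7 FPKM in the same lines at 3 h, and at 5.70 and 7.29 at 6 h. Both Activin times lay above SB in each WT line, and 3 h lay above 6 h in each. In null cells Gal was at 0.487 FPKM in line 25 and 0.190 in line 39 in SB. It was at 1.59 and 1.14 FPKM in these lines at 3 h, and at 1.37 and 0.949 at 6 h. Every null Activin library was above every SB library and below every WT Activin library.

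The group means of Gal were 0.243 ± 0.0821 FPKM (SD, n = 2) in WT SB cells, 10.8 ± 1.26 at 3 h and 6.49 ± 1.12 at 6 h. In null cells they were 0.339 ± 0.210 FPKM (SD, n = 2) in SB, 1.37 ± 0.320 at 3 h and 1.16 ± 0.298 at 6 h. From lowest to highest the groups ran WT SB, null SB, null 6 h, null 3 h, WT 6 h and WT 3 h. Neighbours overlapped within the SB pair and within the null Activin pair, and the other steps had no overlap.

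Gal is annotated on the minus strand at chr19:3409915-3414544 (GRCm38, the assembly that mm10 names, GENCODE M21), and the locus of the table spans all of it. The 250 bases before its start, chr19:3414545-3414794 (RefSeq promoter table, GRCm38.p6, minus strand), are shown because Gal is the member whose level differed most between genotypes, and because SMAD proteins bind the box CAGAC. Capitals mark the matches to that box, which here read GTCTG on the gene's strand.
Gal: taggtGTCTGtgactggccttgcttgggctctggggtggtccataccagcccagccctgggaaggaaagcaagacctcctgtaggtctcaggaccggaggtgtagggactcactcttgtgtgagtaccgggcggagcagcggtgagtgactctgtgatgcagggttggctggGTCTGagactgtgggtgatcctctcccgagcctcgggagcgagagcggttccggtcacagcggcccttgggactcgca
The matches began 245 and 78 bases before the start. Of 27025 mouse promoters of this length, 42.1% held the box on either strand, so it is common. The other motifs searched on both strands were ATNCACA for FOXH1 (in 11.2% of promoters), TGANTCA for AP-1 (6.87%), GATAA for GATA factors (23%) and the TATA box TATAAA (13%), and none of these letters occurred in this window of Gal. The motifs were chosen with the sequences in view, and a match is a description of letters, not a bound site.

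**Figure D1:**
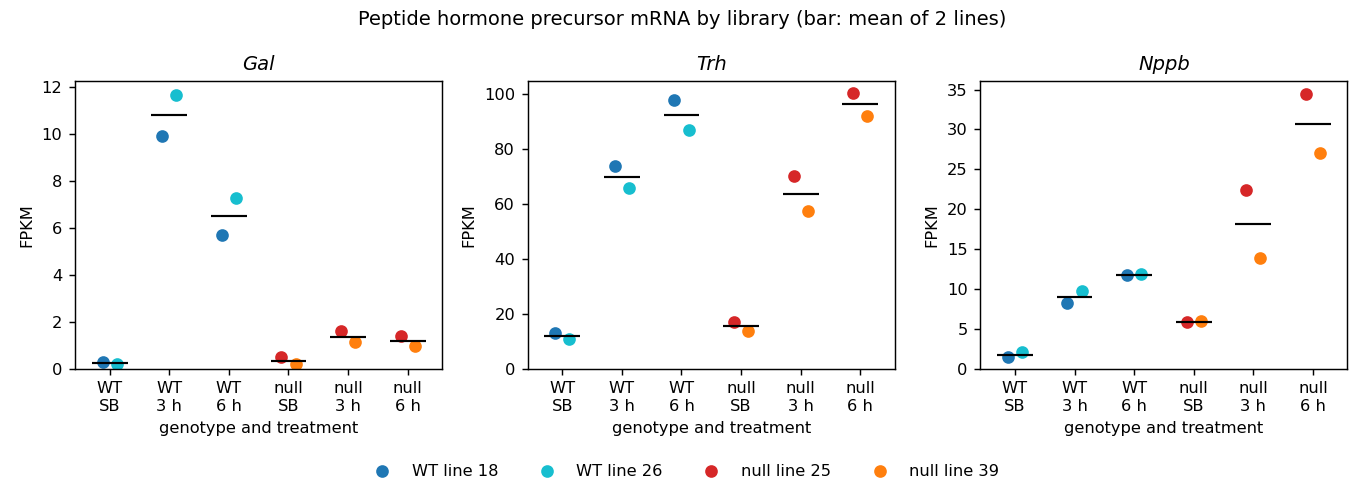
FPKM (y axis, from 0) of Gal, Trh and Nppb in the 12 libraries by genotype and treatment; each point is 1 cell line and the bar is the mean of 2 lines. Gal reached 9.89 to 11.7 FPKM at 3 h in WT lines against 1.14 to 1.59 in null lines, Trh reached similar levels in both genotypes, and Nppb was higher in both null lines in every treatment.

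In WT cells Gal was 32.8 times (line 18) and 63.0 times (line 26) its SB level at 3 h, and 18.9 and 39.4 times at 6 h. In null cells the ratios were 3.28 (line 25) and 6.01 (line 39) at 3 h, and 2.82 and 4.99 at 6 h. These ratios rest on small SB values: if each library had the 30000000 reads that the sequencing company guaranteed, 1 read on the 788-base transcript would be worth 0.0423 FPKM, and the SB values would amount to about 4 to 12 reads.

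On the log2(FPKM + 1) scale, which understates changes of low genes, the rise of Gal in WT cells was 3.24 (SE 0.17, 95% confidence interval 2.85 to 3.63, limma adjusted p = 9.2e-06) at 3 h and 2.58 (SE 0.17, adjusted p = 4.5e-05) at 6 h. In null cells it was 0.83 (SE 0.17, adjusted p = 0.018) at 3 h and 0.69 (SE 0.17, adjusted p = 0.034) at 6 h. Gal was thus above the threshold, an adjusted p of 0.05 over all 12823 genes tested, at both times in both genotypes. So were Trh and Nppb: all 3 genes rose in each of the 4 comparisons of Activin with SB. The share of all genes called, in either direction, was 22.5% for WT at 3 h, 15.9% for WT at 6 h, 13.6% for null at 3 h and 13.4% for null at 6 h. With cell line as a block those shares were 37.2, 33.9, 29.5 and 31.4%. The libraries that gave Gal its gap between genotypes also enter its Activin responses, so these tests are not independent of the choice of Gal. Gal also met the filter for testing, 1 FPKM in 2 libraries, only through Activin libraries. The calls in null cells were lost when any 1 of the 4 lines was left out (adjusted p 0.051 to 0.093 at 3 h and 0.083 to 0.125 at 6 h), with differences of 0.80 to 0.85 and 0.67 to 0.71. The calls in WT cells held without any 1 line, at 3.06 to 3.42 (adjusted p up to 0.010) at 3 h and 2.36 to 2.81 (adjusted p up to 0.027) at 6 h, although without WT line 26 only 137 and 89 genes were called in these comparisons.

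From 3 to 6 h Gal went from 9.89 to 5.70 FPKM in WT line 18 and from 11.7 to 7.29 in WT line 26, ratios of 0.576 and 0.624. The log2 difference of -0.66 (SE 0.17) did not pass the test without the block (adjusted p = 0.093) and did with cell line as a block (SE 0.12, adjusted p = 0.030). In this comparison 2.53% of all genes were called without the block and 6.64% with it, and of the 3 genes none was called without it. In null cells the ratios were 0.859 and 0.831, and the difference was -0.13 (SE 0.17, 95% confidence interval -0.53 to 0.26, adjusted p = 0.71).

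The genotypes overlapped in SB, where the null minus WT difference of Gal was 0.10 on the log2(FPKM + 1) scale (SE 0.17, 95% confidence interval -0.29 to 0.49, adjusted p = 0.80). Without null line 25 it was -0.06, and without null line 39 it was 0.26. The confidence interval leaves room for a difference of either sign at these low levels. Under Activin the null mean was 12.7% of the WT mean at 3 h and 17.9% at 6 h, that is, WT was 7.88 and 5.60 times null. On the log2(FPKM + 1) scale the null minus WT values were -2.32 at 3 h and -1.79 at 6 h. The responses differed by -2.42 at 3 h and -1.89 at 6 h. Ranked over all genes, Gal had the second lowest null minus WT value at both times. Gm20400 was lower at 3 h (-4.60, adjusted p = 0.33), and Tnfaip8 was lower at 6 h (-2.98, adjusted p = 0.34), neither of which passed the test. Just above Gal stood Abca16 at 3 h (-2.23) and Inpp4b at 6 h (-1.78). These values chose the gene and carry no test.

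Trh was the most abundant of the 3 in every library by FPKM, a scale per transcript length, and rose to about the same level in both genotypes. In WT SB cells it was at 13.1 FPKM in line 18 and 10.98 in line 26. It was at 73.8 and 65.7 FPKM in these lines at 3 h, and at 97.8 and 87.1 at 6 h. Each line rose at each step, and the groups did not overlap. In null cells Trh was at 17.1 FPKM in line 25 and 13.6 in line 39 in SB. It was at 70.1 and 57.5 FPKM in these lines at 3 h, and at 100.3 and 92.2 at 6 h. The null lines also rose at each step, from a slightly higher start.

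Mean levels of Trh were 12.02 ± 1.47 FPKM (SD, n = 2) in WT SB cells, 69.7 ± 5.74 at 3 h and 92.4 ± 7.59 at 6 h. In null cells they were 15.4 ± 2.49 (SD, n = 2), 63.8 ± 8.92 and 96.2 ± 5.76 FPKM. From lowest to highest the groups ran WT SB, null SB, null 3 h, WT 3 h, WT 6 h and null 6 h. The genotypes overlapped at 3 h and at 6 h and did not in SB.

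Trh lies on the minus strand at chr6:92242061-92244650 (GRCm38, GENCODE M21), which the locus of the table covers in full. The 250 bases before its start, chr6:92244651-92244900 (RefSeq, GRCm38.p6, minus strand), are shown for contrast with Gal, since both genes rose with Activin.
Trh: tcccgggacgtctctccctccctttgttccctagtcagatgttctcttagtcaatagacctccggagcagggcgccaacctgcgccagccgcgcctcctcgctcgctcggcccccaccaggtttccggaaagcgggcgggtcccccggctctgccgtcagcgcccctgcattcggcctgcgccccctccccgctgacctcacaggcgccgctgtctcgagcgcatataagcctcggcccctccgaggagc
None of the 5 motifs has its letters in this window, so there are no capitals. That says nothing of whether SMAD proteins bind at Trh.

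At 3 h Trh was 5.65 and 5.98 times its SB level in WT lines 18 and 26, and 4.09 and 4.22 times in null lines 25 and 39. At 6 h the ratios were 7.49 and 7.93 in the WT lines and 5.85 and 6.76 in the null lines. Every null ratio was below both WT ratios of the same time. The log2(FPKM + 1) responses were 2.44 (SE 0.14, adjusted p = 1.4e-05) and 2.85 (SE 0.14, adjusted p = 7.4e-06) in WT cells, and 1.98 (SE 0.14, adjusted p = 7.9e-05) and 2.58 (SE 0.14, adjusted p = 1.6e-05) in null cells. The difference between the genotypes in these responses was -0.46 at 3 h (SE 0.20, 95% confidence interval -0.91 to -0.01, adjusted p = 0.93) and -0.27 at 6 h (SE 0.20, 95% confidence interval -0.72 to 0.18, adjusted p = 1; -0.17 without null line 25). Over all 12823 genes limma called 0% in both tests of a difference in response (0 genes each, against 654 and 382 at an unadjusted p under 0.05). With cell line as a block it called 3 genes at 3 h and 0 at 6 h.

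The further rise from 3 to 6 h had a ratio of 1.33 in both WT lines and of 1.43 and 1.60 in null lines 25 and 39. In WT cells it was 0.40 on the log2(FPKM + 1) scale (SE 0.14, adjusted p = 0.18), and with cell line as a block it passed the test (SE 0.05, adjusted p = 0.016). In null cells it was 0.59 (SE 0.14, adjusted p = 0.0498), where 4.63% of all genes were called (13.4% with the block). That call is at the threshold: it was lost under most other settings and without any 1 of the 4 lines (0.51 to 0.67, adjusted p 0.118 to 0.192).

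Null minus WT, Trh differed by 0.33 in SB on the log2(FPKM + 1) scale (SE 0.14, 95% confidence interval 0.01 to 0.64, adjusted p = 0.33). At 3 h the difference was -0.13 (95% confidence interval -0.45 to 0.18, adjusted p = 0.74) and at 6 h it was 0.06 (95% confidence interval -0.26 to 0.37, adjusted p = 0.85). Without single lines the values ran from 0.17 to 0.48 in SB, from -0.27 to 0.01 at 3 h and from -0.02 to 0.14 at 6 h. The intervals under Activin leave room for differences of up to 0.45 on this scale, well short of the values of Gal. Over the means of the 4 lines the difference was 0.09 (SE 0.11, limma adjusted p = 0.73).

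Nppb rose with Activin in both genotypes and, unlike Gal, was higher in null than in WT cells in all 3 treatments. In WT SB cells it was at 1.48 FPKM in line 18 and 2.07 in line 26. It was at 8.22 and 9.77 FPKM in these lines at 3 h, and at 11.7 and 11.9 at 6 h. The WT groups did not overlap, and 6 h was the highest in each line. In null cells Nppb was at 5.82 FPKM in line 25 and 6.02 in line 39 in SB. It was at 22.4 and 13.9 FPKM in these lines at 3 h, and at 34.4 and 27.1 at 6 h. Each null library was above both WT libraries of its treatment, and at 3 h the null lines stood farther apart than in SB.

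Group means of Nppb were 1.77 ± 0.42 FPKM (SD, n = 2) in WT SB cells, 8.99 ± 1.09 at 3 h and 11.8 ± 0.136 at 6 h. The null means were 5.92 ± 0.142 (SD, n = 2), 18.1 ± 6.01 and 30.7 ± 5.21 FPKM. From lowest to highest the groups ran WT SB, null SB, WT 3 h, WT 6 h, null 3 h and null 6 h, and no neighbours in this order overlapped.

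Nppb is annotated on the plus strand at chr4:147985788-147987205 (GRCm38, GENCODE M21), covered in full by the locus of the table. The RefSeq promoter table (GRCm38.p6, plus strand) sets its start at 147985900, inside the longer first exon of the other annotation, so only short stretches are shown. The first, chr4:147985800-147985829, holds a pair of GATAA matches, and the next, chr4:147985858-147985885, holds the TATA box, both in capitals. They are shown because Nppb is the only one of the 3 with these letters in the window searched.
Nppb GATA stretch: gcagctGATAAatcagaGATAAccccaccc
Nppb TATA stretch: ctcagccccagTATAAAaggcagaggca
The GATAA matches began 94 and 83 bases before that start and the TATA box 31 bases before it. A SMAD box (GTCTG on the gene's strand) began 55 bases before it.

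**Figure D2:**
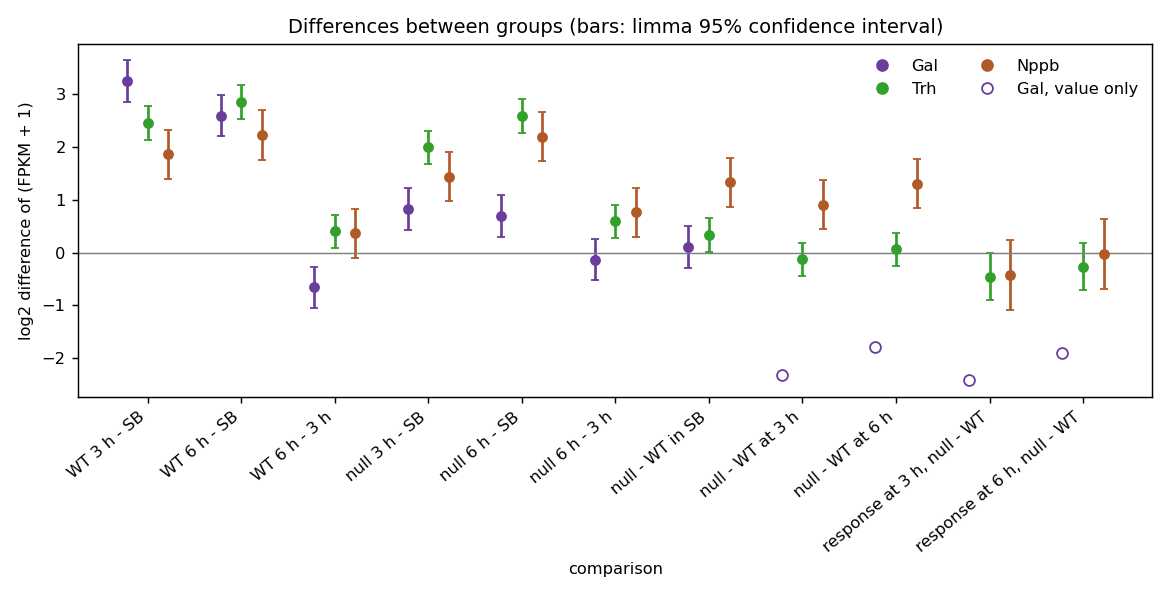
Difference between groups on the log2(FPKM + 1) scale (y axis) for Gal, Trh and Nppb in 11 comparisons (x axis), with limma 95% confidence intervals; open circles are Gal values given without a test. The Activin responses of the 3 genes lie above 0 in both genotypes, and null minus WT under Activin is negative for Gal (-2.32 and -1.79), near 0 for Trh and positive for Nppb (0.91 and 1.30).

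At 3 h Nppb was 5.57 and 4.71 times its SB level in WT lines 18 and 26 and 3.85 and 2.31 times in null lines 25 and 39. At 6 h the ratios were 7.93 and 5.74 in the WT lines and 5.92 and 4.50 in the null lines, which overlap. The log2(FPKM + 1) responses were 1.85 (SE 0.21, adjusted p = 0.00070) and 2.21 (SE 0.21, adjusted p = 0.00027) in WT cells. In null cells they were 1.43 (SE 0.21, adjusted p = 0.0042) and 2.19 (SE 0.21, adjusted p = 0.00038). Without either WT line the WT calls were lost (1.81 to 1.90 at 3 h, adjusted p 0.070 and 0.083, and 2.07 to 2.36 at 6 h, adjusted p 0.052 and 0.064). The responses of the genotypes differed by -0.42 at 3 h (SE 0.29, 95% confidence interval -1.08 to 0.24, adjusted p = 0.93) and by -0.03 at 6 h (SE 0.29, 95% confidence interval -0.69 to 0.63, adjusted p = 1). The 3 h value depended on the null lines: it was -0.77 without line 25 and -0.07 without line 39. Without single lines the 6 h value ran from -0.22 to 0.16, so it had no settled sign.

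From 3 to 6 h Nppb went up 1.42 and 1.22 times in WT lines 18 and 26 and 1.54 and 1.95 times in null lines 25 and 39. The differences were 0.36 (SE 0.21, adjusted p = 0.44) in WT and 0.76 (SE 0.21, adjusted p = 0.076) in null cells. With cell line as a block the null value passed the test (SE 0.15, adjusted p = 0.028).

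The null mean of Nppb was 3.33 times the WT mean in SB, 2.02 times at 3 h and 2.60 times at 6 h. On the log2(FPKM + 1) scale null minus WT was 1.33 in SB (SE 0.21, 95% confidence interval 0.86 to 1.79, adjusted p = 0.046), 0.91 at 3 h (SE 0.21, adjusted p = 0.14; 0.58 without null line 25 and 1.23 without null line 39) and 1.30 at 6 h (SE 0.21, adjusted p = 0.058). In SB, 1 of the 3 genes was called, where 0.312% of all genes were. At 3 h and 6 h, where 0.382 and 0.211% of all genes were called, neither Trh nor Nppb was. The SB call ended without WT line 18 (1.17, adjusted p = 0.81), without WT line 26 (1.48, adjusted p = 0.50) and without null line 39 (1.31, adjusted p = 0.082). The 6 h difference passed without null line 25 (1.13, adjusted p = 0.014). Over the means of the 4 lines the difference was 1.18 (SE 0.13, limma adjusted p = 0.11). In that test 0 genes were called and 1710 had an unadjusted p under 0.05. An exact two-sided permutation test over the line means gave p = 0.333, the smallest that 2 lines against 2 allow.

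Because BNP is a hormone of heart muscle, markers of cardiomyocytes were examined beside it. Of 9 markers 5 were measured, with a summed level in SB of 13.4 to 14.0 FPKM in WT and 19.3 to 20.0 FPKM in null lines. Under Activin the sum ran from 11.3 to 15.9 FPKM in WT and from 15.6 to 20.6 FPKM in null libraries. Single markers did not move alike in the null SB lines 25 and 39. The atrial myosin light chain Myl7 was at 0.889 FPKM in line 25 and 8.97 in line 39, cardiac actin Actc1 was at 7.96 and 5.04, and the myosin light chain Myl4 was at 9.25 and 4.86. In WT SB lines 18 and 26, Myl7 was at 0.3967 and 0.585 FPKM, Actc1 at 5.897 and 4.769, and Myl4 at 6.374 and 6.695. The myosin heavy chains Myh6 and Myh7 had lower SB means in null (0.914 and 0.223 FPKM) than in WT cells (1.098 and 0.2523). In line 39 only Myl7 was above both WT lines. The loci of Myl4, Myh6 and Myh7 hold only part of the gene. Trophoblast markers (6 of 7 measured) summed to 58.8 to 62.0 FPKM in WT and 89.9 to 114.1 FPKM in null lines in SB, mainly through the keratin gene Krt18. The trophoblast regulator Cdx2 was at 1.06 and 0.924 FPKM in WT SB lines 18 and 26 and at 1.44 in both null SB lines. Gata3 had SB means of 0.651 FPKM in WT and 1.36 in null cells, and Tfap2c of 1.77 and 2.54. In SB, 0 of 4 tested cardiomyocyte and 0 of 6 tested trophoblast markers were called between genotypes, where 0.312% of all genes were. The summed levels of both lists were higher in null than in WT cells in SB, as Nppb was, although not every single cardiomyocyte marker was. Higher sums in null cells were not particular to these lists. Markers of neurons and neuroendocrine cells summed to 154.2 to 157.0 FPKM in WT and 164.3 to 179.8 in null SB lines. Sums of stem cell, definitive endoderm and fibroblast markers overlapped between genotypes. Of the 8 stem cell markers, Zfp42 alone was called between genotypes. On the log2(FPKM + 1) scale it was higher in null cells by 0.52 in SB (SE 0.07, limma adjusted p = 0.023). At 3 h, where 0.382% of all genes were called, it was higher by 0.44 (SE 0.07, adjusted p = 0.042). At 6 h the value was 0.41 (adjusted p = 0.062). Over all loci the summed FPKM in SB was 578104 and 584627 in WT and 604602 and 722232 in null lines. None of the measured cardiomyocyte and trophoblast markers was at 0 in any library, and their part in the result of Nppb was not tested. In such bulk samples more cells with a transcript and more transcript per cell cannot be told apart.

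The receptors through which these peptides act were little represented. Of 8 receptor genes 2 were measured, Galr2, a galanin receptor, and Npr1, the guanylyl cyclase receptor for natriuretic peptides, whose locus covers only part of the gene. Galr2 had group means of 2.40, 2.13 and 2.81 FPKM in WT cells (SB, 3 h and 6 h) and 2.46, 1.87 and 3.07 in null cells. Its rise from 3 to 6 h in null cells was 0.51 (SE 0.10, adjusted p = 0.027), and without any 1 of the 4 lines the adjusted p was 0.092 to 0.19. No other change of these receptors passed the test.

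Of 13 enzymes that cut or finish prohormones, 10 were tested, of which 1 rose at 3 h in each genotype, 1 rose at 6 h in null cells and 0 fell. That is 10% of the list each time, below the 22.5, 13.6 and 13.4% of all genes. Furin, a convertase of the secretory pathway, rose by 0.52 at 3 h in WT cells (SE 0.13, adjusted p = 0.026) and by 0.75 in null cells (SE 0.13, adjusted p = 0.0098). Pcsk1, the convertase PC1/3 of regulated secretion, rose by 0.50 at 6 h in null cells (SE 0.12, adjusted p = 0.027). Pcsk2, which encodes the convertase PC2, was listed at 509.0 to 1842 FPKM and was called in no comparison. That is as high as the stem cell marker Pou5f1 (562.2 to 925.6 FPKM), and null SB lines 25 and 39 stood apart, at 509.0 and 1133 FPKM. Whether so high a value reflects transcripts of the gene or a problem of counting or annotation was not tested. Of 10 granule proteins 6 were tested and 1 was called at 6 h in each genotype (16.7%, beside 15.9 and 13.4% of all genes). Vgf, which is itself cut into peptides, rose by 0.73 at 6 h in WT cells (SE 0.17, adjusted p = 0.023). Chga, the granule protein chromogranin A, fell by 0.52 at 6 h in null cells (SE 0.14, adjusted p = 0.044). Of 9 peptide-degrading enzymes 7 were tested, of which 1 rose and 1 fell at 3 h and 2 rose and 1 fell at 6 h in WT cells (28.6 and 42.9%, beside 22.5 and 15.9% of all genes). Dpp4, a dipeptidyl peptidase of the cell surface, fell by 0.91 (SE 0.17, adjusted p = 0.010) and Mme, the peptidase neprilysin, rose by 0.51 (adjusted p = 0.043), both at 6 h in WT cells. The insulin-degrading enzyme Ide fell by 0.28 at 3 h in WT cells (SE 0.07, adjusted p = 0.028). Pgpep1, an enzyme that removes the pyroglutamate end that TRH carries, rose by 0.63 at 3 h in WT cells (SE 0.13, adjusted p = 0.014), with only part of the gene in its locus. Ece2 rose at 6 h by 0.42 in WT and 0.41 in null cells (adjusted p = 0.015 and 0.019), but its locus does not overlap the annotated gene. The calls of these genes in WT cells were lost without either WT line. No gene of the 4 lists was called between genotypes in any treatment, where 0.312% (SB), 0.382% (3 h) and 0.211% (6 h) of all genes were. At such shares the absence of calls in short lists says little about them.

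To place the 3 genes among their kind, 78 other genes for peptide hormone and neuropeptide precursors were listed, of which 19 were in the table and 17 were tested. In WT cells 4 rose and 0 fell at 3 h, and 2 rose and 2 fell at 6 h. In null cells 2 rose and 0 fell at 3 h, and 2 rose and 2 fell at 6 h. Of the genes that rose, Edn1, Uts2b and Adcyap1 were below 1 FPKM in every SB library. They met the filter for testing only through Activin libraries, so their rises and these counts are not independent of the filter. The share called was 23.5% at 3 h and at 6 h in WT cells, beside 22.5 and 15.9% of all genes, and 11.8 and 23.5% in null cells, beside 13.6 and 13.4%. At 3 h these shares are near those of all genes. The median response was 0.09 at 3 h and 0.31 at 6 h in WT cells and -0.01 and 0.02 in null cells, beside medians over all genes of -0.01, 0.02, -0.01 and 0.01. No member was called between genotypes, where 0.312% (SB), 0.382% (3 h) and 0.211% (6 h) of all genes were, so this says little about the list. Without WT line 18 or 26 the list had 0 calls in WT cells. With cell line as a block 6 rose and 1 fell in WT cells at 3 h, and 6 rose and 3 fell at 6 h. In null cells 0 rose at 3 h without null line 25 and 1 without any other line, and at 6 h 0 fell without WT line 18 or 26.

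Edn1, the precursor of the vasoconstrictor endothelin-1, had group means of 0.432, 1.48 and 1.82 FPKM in WT cells and 0.563, 2.34 and 3.26 in null cells. It rose by 0.79 and 0.95 at 3 and 6 h in WT cells (adjusted p = 0.016 and 0.0091) and by 1.09 and 1.44 in null cells (adjusted p = 0.0058 and 0.0013). Uts2b, the precursor of the urotensin II-related peptide, was at 0.0231, 0.515 and 0.928 FPKM in WT and at 0.512, 1.21 and 2.78 in null cells. It rose by 0.57 and 0.90 in WT cells (adjusted p = 0.035 and 0.0082) and by 0.56 and 1.33 in null cells (adjusted p = 0.049 and 0.0013). At 6 h both genes were at a higher mean in null than in WT cells, in the direction of Nppb, and neither difference between genotypes passed the test.

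Rln1, the relaxin precursor, rose by 0.71 at 3 h in WT cells (SE 0.14, adjusted p = 0.011). Adcyap1, the precursor of the neuropeptide PACAP, rose by 0.92 (SE 0.24, adjusted p = 0.030) with only part of its gene in the locus. Those that fell were 2 of the more abundant precursors. Apela, which encodes an apelin receptor ligand of stem cells, had means of 49.3, 37.1 and 31.3 FPKM in WT and 57.0, 42.2 and 36.0 in null cells, and fell by 0.64 and 0.65 at 6 h (adjusted p = 0.020 in both genotypes). Calca, the precursor of calcitonin and CGRP, fell by 0.45 in WT and 0.43 in null cells at 6 h (adjusted p = 0.030 and 0.039). Nts, the neurotensin precursor, was at 4.16 to 5.33 FPKM in WT and 10.51 to 13.5 in null SB lines, a difference of 1.18 that did not pass the test (SE 0.28, adjusted p = 0.15).

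**Figure D3:**
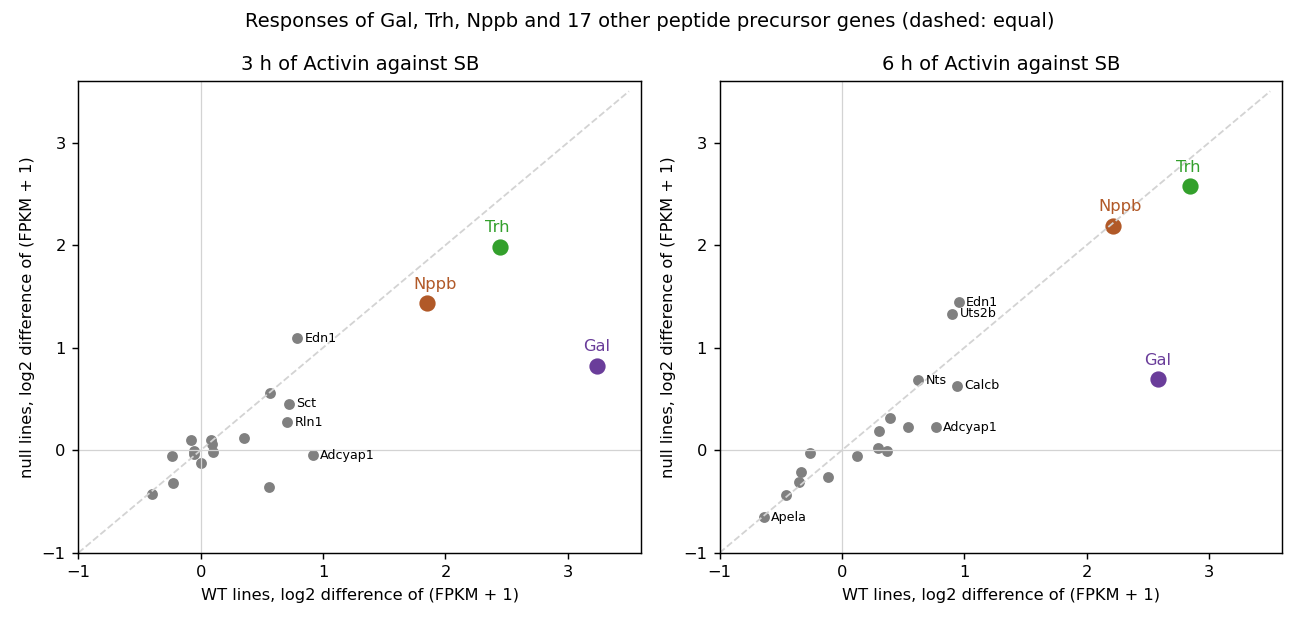
Response to Activin on the log2(FPKM + 1) scale in WT lines (x axis) and null lines (y axis) at 3 h and 6 h for Gal, Trh, Nppb and 17 other peptide precursor genes in grey; the dashed line marks equal responses. Trh and Nppb lie close to the line, Gal lies far below it (3.24 against 0.83 at 3 h, 2.58 against 0.69 at 6 h), and most other precursors lie near 0.

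Direct targets of Activin and Nodal signalling, a list that includes Skil, Pmepa1 and Tdgf1, were examined as a comparison, since the list was known to respond in these samples. All 15 tested genes rose at 3 h in both genotypes, with a median of 3.00 in WT and 2.23 in null cells, and 14 rose at 6 h, with medians of 2.10 and 1.90. These are 100% of the list at 3 h, beside 22.5% (WT) and 13.6% (null) of all genes. At 6 h they are 93.3%, beside 15.9% (WT) and 13.4% (null). From 3 to 6 h, 11 fell in WT and 6 in null cells (73.3 and 40% of the list, beside 2.53 and 4.63% of all genes called). Most of the list was thus lower at 6 h than at 3 h in WT cells, as Gal was in both WT lines. Trh and Nppb were higher at 6 h than at 3 h in every line. Without either WT line, 0 of the list were called from 3 to 6 h in WT cells, and without any 1 line 0 were called in null cells. Between genotypes, 2 were lower in null cells at 3 h, Skil by 1.16 (SE 0.07, adjusted p = 0.00043) and Pmepa1 by 1.21, whose locus covers only part of the gene. At 6 h only Skil was called, lower by 0.96 (SE 0.07, adjusted p = 0.0013). These calls were 13.3% of the list at 3 h and 6.67% at 6 h, beside 0.382 and 0.211% of all genes. Under Activin no gene of the table, Skil and Rnf111 included, was called between genotypes without WT line 18 or without WT line 26.

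Skil was also the gene whose log2(FPKM + 1) over the 12 libraries was most like that of Gal, with a Pearson r of 0.98. It encodes SnoN, the SMAD repressor on which Arkadia acts. Its mean levels were 11.02, 37.1 and 28.4 FPKM in WT cells and 8.39, 16.0 and 14.1 in null cells in SB, at 3 h and at 6 h. As with Gal, both Activin times were above SB, 3 h was above 6 h, and WT was above null under Activin, by 2.32 times at 3 h and 2.02 times at 6 h. Its response was 3.25 and 3.48 times at 3 h in WT lines 18 and 26 and 1.79 and 2.03 times in null lines 25 and 39. The other genes most like Gal were Hes6 (r = 0.97), Rhpn2 (0.96), Card19 (0.96) and Tcea3 (0.95). Hes6, which encodes a HES family factor, had means of 135.5, 252.0 and 200.4 FPKM in WT and 127.9, 163.8 and 154.1 in null cells. It was lower in null cells at 3 h by 0.62 on the log2(FPKM + 1) scale. That value is given without a test, since Hes6 was picked for its likeness to Gal in these libraries.

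The patterns most like Trh were those of Bhlhe40 (r = 0.99), Has2 (0.99), Gm26829 (0.99), Steap1 (0.99) and Ctsw (0.99). Bhlhe40, which encodes a basic helix-loop-helix repressor, had means of 0.450, 1.66 and 2.22 FPKM in WT and 0.502, 1.84 and 2.34 in null cells. Has2, a hyaluronan synthase, had means of 0.729, 4.70 and 5.47 FPKM in WT and 1.15, 3.46 and 5.20 in null cells. Both followed Trh in being higher at 6 h than at 3 h with similar levels in the genotypes at 6 h. Those most like Nppb were Cklf (r = 0.98), Rbm34 (0.98), Gm5552 (0.98), Ugp2 (0.97) and Serinc1 (0.97). Cklf, a chemokine-like factor, had means of 24.8, 39.1 and 42.1 FPKM in WT and 32.2, 49.7 and 55.5 in null cells. Gm5552 had means of 15.1, 26.9 and 35.9 FPKM in WT and 23.6, 39.6 and 65.2 in null cells. The 12 points of each r share their line and treatment, and the 5 genes were picked as the highest of all genes tested, so r is a description.

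**Figure D4:**
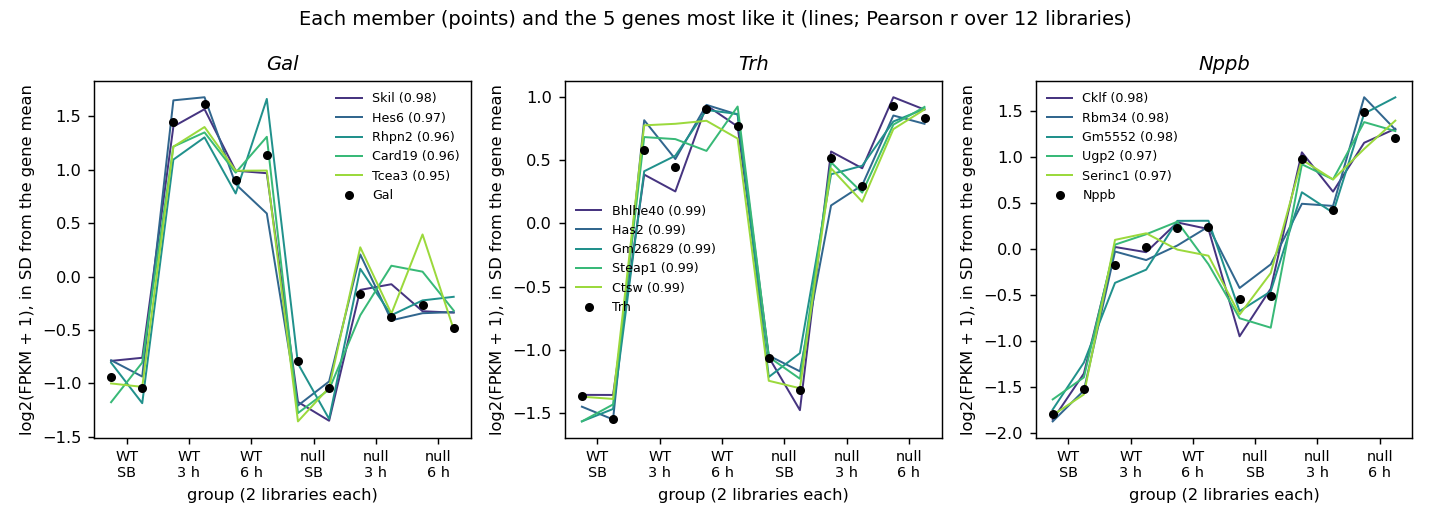
log2(FPKM + 1) in SD from the gene's own mean (y axis) in the 12 libraries, 2 per group (x axis), for each of Gal, Trh and Nppb (points) and the 5 genes with the highest Pearson r (lines). The Gal pattern is high in WT Activin libraries, the Trh pattern is alike in both genotypes, and the Nppb pattern is higher in null libraries.

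The 3 tested genes on either side of each member on its chromosome gave 18 neighbours. None of them was called between genotypes in any treatment, where 0.312% (SB), 0.382% (3 h) and 0.211% (6 h) of all genes were. At such shares the absence of calls in so few genes says little about them. Beside Gal, 2 of 6 rose and 2 fell at 3 h in WT cells, where 22.5% of all genes were called. Cpt1a, a mitochondrial fatty acid transferase whose locus covers part of the gene, rose by 1.59 (SE 0.17, adjusted p = 0.00056) in WT and by 1.38 (SE 0.17, adjusted p = 0.0019) in null cells at 3 h. These calls ended without WT line 26 (1.34, adjusted p = 0.055) and without null line 25 (1.41, adjusted p = 0.052). Cpt1a thus had similar values in both genotypes, whereas the response of Gal was far smaller in null cells. Lrp5, also beside Gal, rose at 3 h by 0.64 in null cells (SE 0.09, adjusted p = 0.0040) and by 0.20 in WT cells (SE 0.09, adjusted p = 0.13). That difference in response, 0.43, did not pass the test (SE 0.13, adjusted p = 0.76). Beside Trh, 1 of 6 rose at 3 h in WT cells, Prickle2 by 1.40 (SE 0.26, adjusted p = 0.0089), with only a small part of the gene in its locus. Beside Nppb, Agtrap alone was called, with only part of the gene in its locus. It was lower by 0.25 at 3 h and by 0.37 at 6 h in WT cells and by 0.36 at 6 h in null cells. In these comparisons 22.5, 15.9 and 13.4% of all genes were called.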

How the data were processed

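Poly(A) RNA of 12 libraries was read as 50-base single reads, per the labels' protocols. Per the file headers, the authors deposited FPKM for every gene locus in every library. Per the submitters' processing notes, the genome build was mm10. Which aligner, quantifier and strand setting were used is not given in the sources used here. Of 17446 loci, 2666 without a name (3.41 to 3.86% of summed FPKM), 27 with a status other than OK and 1245 lower rows of repeated names were left out. Values were modelled as log2(FPKM + 1) in limma 3.58.1 (R 4.3.3), with 6 group means, a variance trend and 6 residual degrees of freedom. It covered 12823 genes at 1 FPKM or more in 2 or more libraries. Genes below 1 FPKM in every SB library, Gal and Pcsk1 among them, entered only through Activin libraries. Tests were two-sided, with Benjamini-Hochberg adjusted p under 0.05 as the threshold. A locus is said to hold part of a gene where it covers less of it than it leaves out.

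Replicate numbers are cell lines in the labels, so they pair the samples of a genotype. Deviations of a line's libraries from their group means correlated at 0.0165 to 0.0537 in WT and 0.246 to 0.349 in null lines. The members, gene lists and motifs were chosen with earlier results of these data known. Named genes are the members, called genes of the lists, the 5 genes most like each member, the 3 tested neighbours on each side, and Rnf111. On simulated data for WT 3 h against SB (12823 genes, 200 changed), 90% of changes of 1 and 98% of changes of 2 on the log2 scale were recovered, with 15 false calls. The changed genes were drawn from those with a mean log2(FPKM + 1) above 3, and the libraries were simulated as independent. The recovery therefore does not apply to low genes such as Gal, nor does it cover the correlation within null lines. Alternatives covered the pseudocount, filter, normalization, repeated names, variance trend, groups compared alone, the block and each line left out. The fit over line means was added after seeing the data.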

Additional observations from a re-analysis of the deposited data

Results flagged for a closer look

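In 48 genes named by the rules and 3 intervals each (144 in all), every WT line moved one way and every null line the other in 5 cases. None concerned Gal, Trh or Nppb. From 3 to 6 h, null minus WT responses on the log2(FPKM + 1) scale were -0.35 for Chga (WT up, null down), 0.58 for Dpp4 (WT down, null up), 0.13 for Serinc1 (WT down, null up) and 0.31 for Tdgf1 (WT down, null up). These 4 differences were not tested. From SB to 3 h the value was -0.16 for Ece2 (WT up, null down), and the test of that difference gave limma adjusted p = 0.93.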

How the results depend on the processing

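No called value changed sign. Values that missed the test changed sign in 7 cases for Gal, Trh and Nppb and in 199 for other genes. The 7 were Gal null minus WT in SB without null line 25 (-0.06), Trh at 3 h without null line 39 (0.01), Trh at 6 h without WT line 26 (-0.02), without null line 25 (-0.0018) or with quantile normalization (-0.05), and the Nppb difference in response at 6 h without WT line 18 (0.12) or null line 39 (0.16). Of the values of Gal, Trh and Nppb under other settings, 345 were counted as unchanged, 33 lost the threshold, 5 gained it and 4 moved. Tested values were unchanged if they kept their side of the threshold. The untested Gal values were unchanged if they stayed within 1 SE of the main value. With a pseudocount of 0.1 the untested Gal values were -2.90 (3 h) and -2.40 (6 h) for null minus WT, and -3.19 and -2.68 for the difference in response. With cell line as a replicate block, 6 h minus 3 h passed for Gal in WT (-0.66, adjusted p 0.030), Trh in WT (0.40) and Nppb in null cells (0.76). It changed no other call of these genes. The block cannot be used for null minus WT, since each line has 1 genotype.

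Leaving out each line gave Gal 0.80 to 0.85 (null 3 h against SB) and 0.67 to 0.71 (null 6 h), Trh 0.51 to 0.67 (null 6 h minus 3 h), and Nppb 1.81 to 1.90 (WT 3 h), 2.07 to 2.36 (WT 6 h), 1.17 to 1.48 (null minus WT in SB) and 1.13 to 1.47 (null minus WT at 6 h). With the groups compared alone, calls were lost for Gal in null cells (0.83 and 0.69), Trh from 3 to 6 h in null cells (0.59), Nppb in null cells at 3 h (1.43) and Nppb between genotypes in SB (1.33). A filter at 5 FPKM lost Gal in null cells at 6 h (0.69, adjusted p 0.051) and gained Nppb between genotypes at 6 h (1.30, adjusted p 0.047). The Trh call from 3 to 6 h in null cells was also lost with pseudocount 0.1 (0.60), quantile normalization (0.50), and no filter, summed rows or no variance trend (0.59 each). The Nppb call in SB was lost with no filter (1.33), quantile normalization (1.33) and no variance trend (1.33).

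Genes called over the whole table with the block were 4772 and 4342 (WT 3 h and 6 h against SB), 852 (WT 6 h minus 3 h), 3788, 4026 and 1724 (the same in null cells) and 3 (response at 3 h), against 2882, 2039, 325, 1749, 1718, 594 and 0. With the groups alone they were 3119 (WT 6 h), 63 (WT 6 h minus 3 h), 176, 127 and 0 in null cells, and 0 between genotypes in each treatment. Pseudocount 0.1 gave 32 genes between genotypes at 3 h, and quantile normalization gave 2 for the response at 3 h. Without single lines the counts ran from 137 to 4354 and 89 to 3897 (WT 3 h and 6 h), 0 to 456 (WT 6 h minus 3 h), 243 to 2058, 384 to 1779 and 0 to 0 (null cells), and 0 to 2047, 0 to 136 and 0 to 1508 (null minus WT in SB, at 3 h and at 6 h). Counts within the lists moved by over 1.5 times in 307 of 3096 cases. FPKM without read totals leaves the precision of Gal in SB unknown, and 2 lines per genotype limit every comparison of genotypes.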
